A study of Mus musculus with 4 samples.

Results

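The vascular endothelial growth factor (VEGF) family was followed as 10 genes of the 31054 features counted. They are listed by name, as 5 ligands (Vegfa, Vegfb, Vegfc, Vegfd and Pgf) and 5 receptors and co-receptors (Flt1, Kdr, Flt4, Nrp1 and Nrp2). They were read in single stromal vascular cells of gonadal adipose tissue, that is, the cells left when the fat-laden adipocytes are removed, so adipocytes themselves were not sampled. Of the 4 sorted groups, each was 1 library, labelled CD45- Tom+, CD45- Tom-, CD45+ Tom+ or CD45+ Tom-. Values given for all libraries follow this order, and values given for the Tom+ or the Tom- libraries have the one labelled CD45- first. All groups came from 18-month-old male mice of the genotype p16-CreERT2/R26-LSL-tdTomato that had received tamoxifen. In these mice the p16 promoter drives a tamoxifen-inducible Cre, which turns on tdTomato from the Rosa26 locus, so that Tom+ records promoter activity at the time of tamoxifen and not the level of p16 when the cells were collected. CD45 is a surface protein of leukocytes. How many animals went into a library, and whether they were pooled, is not given in the sources used here. With 1 library per group nothing below could be checked against replicates, and a difference between groups is one between single libraries, not conditions. All intervals are 95% intervals that cover counting error only.

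VEGF-A, the main angiogenic ligand, binds VEGF receptor 1 (Flt1) and VEGF receptor 2 (Kdr), whereas VEGF-B and placental growth factor (Pgf) bind VEGF receptor 1. VEGF-C and VEGF-D are the ligands of VEGF receptor 3 (Flt4), the receptor through which lymphatic endothelium grows and is maintained, and after proteolytic processing they can also engage VEGF receptor 2. VEGF receptor 1 is largely a decoy that holds VEGF-A, VEGF receptor 2 carries most of the mitogenic signal of blood vessels, and the neuropilins Nrp1 and Nrp2 are co-receptors, the former typical of arterial and capillary endothelium and the latter of venous and lymphatic endothelium. In adipose tissue these ligands are known for the upkeep of a dense capillary bed and of the lymphatic vessels that drain it.

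In mm10, Vegfa (ENSMUSG00000023951) lies at chr17:46016993-46032369 on the minus strand and Vegfb at chr19:6982473-6987651 on the minus strand. Vegfc lies at chr8:54077606-54187096 and Vegfd at chrX:164373378-164402650, both on the plus strand. Pgf lies at chr12:85166635-85177790 on the minus strand. Flt1 (chr5:147561604-147726011) and Kdr (chr5:75932827-75978458) share a chromosome and the minus strand. Flt4 (ENSMUSG00000020357) lies at chr11:49609263-49652739, Nrp1 at chr8:128358604-128503363 and Nrp2 at chr1:62703285-62818695, all on the plus strand. Exons of Nrp1 overlap the microRNA gene Mir1903 on the same strand, and no other member overlaps an exon of another gene in the annotation. Promoters are shown for the 3 receptors that bind the ligands (Flt4, Kdr and Flt1), and for Vegfd, a ligand counted mainly in stromal progenitors. The sequences are from RefSeq on GRCm38.p6, the assembly that mm10 names, run 5′ to 3′ on the strand of the gene from 250 bases before to 50 bases after the start, and carry in capitals each match of GGAA or its reverse complement TTCC, the core bound by ETS factors. The windows are chr11:49609429-49609728 (plus strand) for Flt4, chr5:75978406-75978705 (minus) for Kdr, chr5:147725962-147726261 (minus) for Flt1 and chrX:164373272-164373571 (plus) for Vegfd.
Flt4: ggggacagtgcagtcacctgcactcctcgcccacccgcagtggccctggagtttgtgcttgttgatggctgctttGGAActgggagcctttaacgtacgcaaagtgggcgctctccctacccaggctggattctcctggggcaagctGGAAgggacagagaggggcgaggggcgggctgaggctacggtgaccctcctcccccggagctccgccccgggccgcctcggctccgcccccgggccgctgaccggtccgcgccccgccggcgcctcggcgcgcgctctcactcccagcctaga
Kdr: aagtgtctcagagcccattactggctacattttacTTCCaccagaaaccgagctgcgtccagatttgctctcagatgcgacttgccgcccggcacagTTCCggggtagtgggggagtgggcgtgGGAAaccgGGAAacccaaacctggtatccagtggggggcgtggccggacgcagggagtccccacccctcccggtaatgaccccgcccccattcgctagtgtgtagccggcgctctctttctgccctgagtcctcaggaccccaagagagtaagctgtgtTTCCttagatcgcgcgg
Flt1: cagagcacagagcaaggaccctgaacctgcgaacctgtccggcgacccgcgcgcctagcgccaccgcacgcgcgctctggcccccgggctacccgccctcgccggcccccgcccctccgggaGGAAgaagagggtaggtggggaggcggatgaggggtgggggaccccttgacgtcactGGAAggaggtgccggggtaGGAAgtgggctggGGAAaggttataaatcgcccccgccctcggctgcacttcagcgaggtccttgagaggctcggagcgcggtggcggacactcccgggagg
Vegfd: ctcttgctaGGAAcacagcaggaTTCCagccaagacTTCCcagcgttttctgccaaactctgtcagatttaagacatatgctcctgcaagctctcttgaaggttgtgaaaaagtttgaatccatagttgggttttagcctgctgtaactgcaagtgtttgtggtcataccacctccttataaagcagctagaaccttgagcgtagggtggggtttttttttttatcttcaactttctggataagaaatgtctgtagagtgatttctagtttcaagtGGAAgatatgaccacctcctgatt
The window of Flt4 held 2 matches of GGAA on either strand, that of Kdr 5, that of Flt1 4 and that of Vegfd 4, and 96.0% of 32851 promoters of the same length held at least 1, with a median of 3. The GC box core GGGCGG was matched 3 times at Flt4, 2 times at Kdr, 3 times at Flt1 and at no position of the Vegfd window, against 35.7% of promoters with a match. The hypoxia response core ACGTG was in none of these 4 windows and in 19.6% of promoters. The GC content was 70.3%, 60.7% and 70.7% at Flt4, Kdr and Flt1 and 42.0% at Vegfd. Matches are descriptions of the letters and not binding sites.

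The libraries held 7815, 11255, 3429 and 11068 barcodes, of which 3886, 3674, 1927 and 4391 cells were kept, 13878 in all, with medians of 18331 to 19516 UMIs (unique molecular identifiers, each 1 captured transcript) per cell. Levels are in CPM, a gene's UMIs per 1000000 UMIs summed over the cells of a class. Cells were clustered without the VEGF genes, and classes were named from marker genes that include no member. The tdTomato label matched its transcript, at 713 and 714 CPM in the Tom+ libraries and 15.8 and 18.7 CPM in the Tom- libraries. The CD45 label did not match its transcript: Ptprc, which encodes CD45, was at 217, 157, 223 and 188 CPM, and 80.3%, 49.3%, 78.8% and 52.1% of cells had a UMI of it. The libraries labelled CD45- and CD45+ with the same Tom label are therefore given side by side, under their labels, and no direction is drawn between them. Cdkn2a, the gene of p16, was at 6.78 to 7.57 CPM in all 4 libraries. Cell barcodes were shared: 3555 of the kept cells had a barcode that was also deposited in another library, and 80 had one that was also kept in another.

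Lymphatic endothelial-like cells were found in the Tom+ libraries and all but absent from the Tom- libraries. In the Tom+ libraries there were 178 of 3886 cells (4.58%, 3.94 to 5.29) and 86 of 1927 (4.46%, 3.59 to 5.48). The library labelled CD45- Tom- had 1 such cell (0.0272%), and that labelled CD45+ Tom- had 0 of 4391 cells, which allows a share of up to 0.084%. Blood endothelial-like cells were in all 4 libraries, with 62, 104, 32 and 134 cells (1.60%, 2.83%, 1.66% and 3.05%). Antibodies to CD31, an endothelial surface protein, were used in the sort along with those to CD45, so the shares of endothelial cells follow the gates as well as the tissue.

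The name lymphatic endothelial-like was given because lymphatic markers were raised in these cells. Their levels describe the cells and are no separate test of the name. The 6 lymphatic markers summed to 21726 and 20239 CPM in these cells of the Tom+ libraries, and to between 3.34 and 24.04 CPM in blood endothelial-like cells. Prox1, the transcription factor that sets lymphatic identity, was at 1057 and 1078 CPM, and Lyve1, a hyaluronan receptor of lymphatic capillaries, at 3660 and 3959 CPM. The blood endothelial markers summed to 897 and 793 CPM, against 4723 to 5383 CPM in blood endothelial-like cells, and the pan-endothelial markers to 4180 and 4062 CPM against 8205 to 9263 CPM. Esam, an endothelial adhesion molecule among them, was at 33.5 and 35.0 CPM against 737 to 869 CPM. The median cell had 16585.5 and 16002 UMIs, and the median blood endothelial-like cell 10465, 6932.5, 12569.5 and 8088 UMIs.

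**Figure D1:**
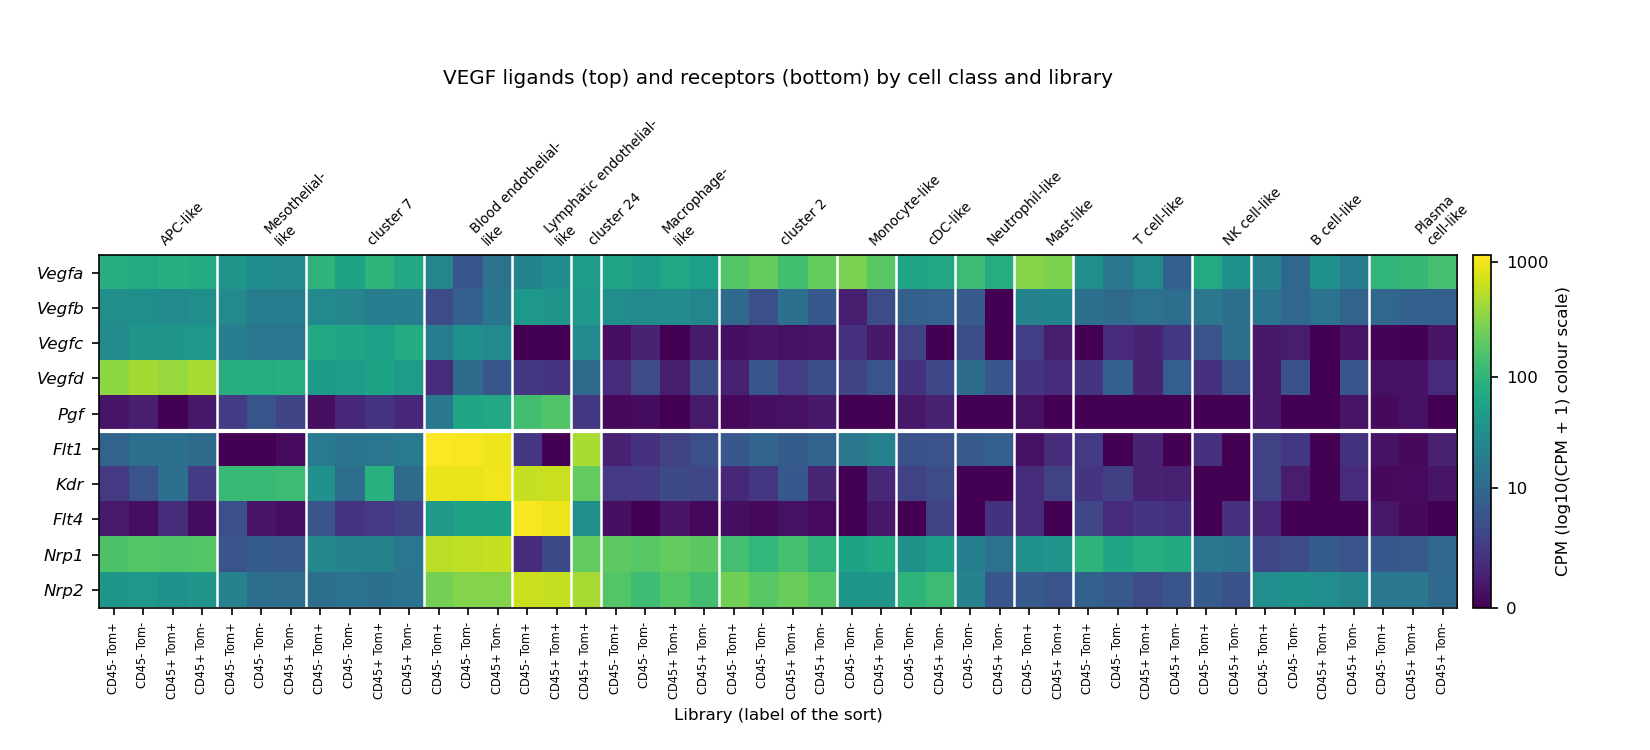
Level of each member (rows, colour on a log10(CPM + 1) scale) in cell classes and libraries with at least 50 cells (columns), with ligands above the white line and receptors under it and cDC-like standing for conventional dendritic-like. The unnamed clusters 18, 20, 22 and 23 also had at least 50 cells in a library and are not drawn. Flt4 and Pgf stand out in the lymphatic endothelial-like columns, Flt1 in the blood endothelial-like columns and Vegfd in those of adipose progenitor-like (APC-like) cells.

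Vegfa, the main angiogenic ligand, was counted in leukocytes and stroma alike. In adipose progenitor-like (APC-like) cells, the fibroblast-like stromal cells that can form adipocytes, it was at 82.4 (75.3 to 89.99), 73.7 (70.9 to 76.6), 80.004 (69.6 to 91.6) and 74.7 (72.1 to 77.4) CPM, and these 4 intervals all overlapped. The highest levels were in leukocytes. Mast-like cells of the Tom+ libraries were at 318 (296 to 340) and 289 (261 to 319) CPM, and monocyte-like cells of the Tom- libraries at 278 (250 to 309) and 190 (170 to 212) CPM. Cluster 2, whose leading genes Arg1, Cd5l, Marco and Olr1 are known from macrophages, was at 175, 218, 134 and 216 CPM. It kept its number because its leading genes held a marker of another class and none of the macrophage markers used for naming. Plasma cell-like cells, the antibody-secreting cells, were at 103 and 113 CPM in the Tom+ libraries and 144 CPM in that labelled CD45+ Tom-. In the library labelled CD45- Tom+ the order ran from mast-like cells through cluster 2 to plasma cell-like cells, with no overlap between these 3. Cluster 7, APC-like and NK cell-like cells followed, with intervals that overlapped each with the next. The other unnamed clusters are left out of this order. Lymphatic endothelial-like cells had little Vegfa, at 23.3 (18.5 to 29.0) and 29.9 (22.0 to 39.8) CPM, and blood endothelial-like cells 24.03, 5.56, 8.25 and 12.7 CPM.

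Vegfb, a ligand known for its high expression in tissues that burn fat, differed between classes. It was at 31.9, 32.4, 27.3 and 32.2 CPM in APC-like cells and at 31.6, 27.0, 29.3 and 24.6 CPM in macrophage-like cells. Lymphatic endothelial-like cells had 42.2 (35.6 to 49.6) and 38.8 (29.7 to 49.9) CPM, at or near the top of the order in the Tom+ libraries, with intervals that overlapped those of APC-like cells. Blood endothelial-like cells had 4.01, 7.78, 6.19 and 14.3 CPM. Monocyte-like cells were at 0.813 and 4.13 CPM in the Tom- libraries.

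Vegfd, a ligand of VEGF receptor 3, was counted mainly in the stroma. APC-like cells were at 351 (336 to 366), 443 (436 to 450), 389 (366 to 414) and 453 (446 to 459) CPM, and 78.9%, 90.2%, 83.2% and 90.6% of them had a UMI. The Tom+ libraries lay below the Tom- libraries, by less than 1.5-fold. Cluster 23, an unnamed cluster in which APC and plasma cell markers were both raised, came next in the library labelled CD45- Tom+, where its 73 cells had 157 (144 to 170) CPM and held 17.4% of Vegfd UMIs. Mesothelial-like cells, which line the surface of the fat pad, had 79.5, 76.5 and 84.7 CPM in the 3 libraries with at least 50 of them. Cluster 7, a stromal cluster led by Cxcl13, Saa3, Cxcl5 and Ptgis in which mesothelial and progenitor markers were raised nearly alike, was at 45.4, 47.8, 58.0 and 47.9 CPM. T cell-like cells, which are not known to make it, had 1.90, 7.59, 0.9996 and 7.15 CPM, with a UMI in 1.36%, 4.78%, 0.699% and 4.505% of cells, which is read here as background. Lymphatic endothelial-like cells, at 2.04 and 1.91 CPM, and blood endothelial-like cells, at 1.34 to 11.1 CPM, were in or near that range.

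Vegfc, the other ligand of VEGF receptor 3, had its highest level in cluster 7, at 69.3 (62.9 to 76.2), 62.7 (57.1 to 68.8), 53.0 (45.2 to 61.6) and 76.2 (69.9 to 83.0) CPM. APC-like cells followed at 27.7 (23.7 to 32.3), 36.9 (34.9 to 38.9), 37.9 (30.9 to 46.1) and 42.0 (40.1 to 44.0) CPM. The intervals of these 2 classes stood apart in every library except that labelled CD45+ Tom+. Blood endothelial-like cells had 18.7, 33.4, 14.4 and 26.3 CPM and mesothelial-like cells 18.2, 15.04 and 14.8 CPM. No UMI of Vegfc was counted in lymphatic endothelial-like cells of the Tom+ libraries, 0 of 178 and 0 of 86 cells, where the floor of 3 UMIs is 0.873 and 1.91 CPM.

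Pgf had its highest levels in endothelial-like cells among the classes of at least 50 cells. Lymphatic endothelial-like cells had 136 (124 to 148) and 171 (151 to 192) CPM, with a UMI in 50.0% and 44.2% of cells. Blood endothelial-like cells followed at 16.0 (8.28 to 28.0), 62.3 (47.0 to 80.9), 37.1 (22.0 to 58.7) and 69.3 (55.5 to 85.4) CPM. A UMI was found in 8.06%, 6.73%, 12.5% and 6.72% of blood endothelial-like cells, so few cells held it. Mesothelial-like cells had 2.53 to 5.27 CPM. Since they were many, they held 61 of the 183 Pgf UMIs (33.3%) of the library labelled CD45- Tom-, beside 56 (30.6%) in blood endothelial-like and 28 (15.3%) in APC-like cells. Cluster 25, an unnamed cluster in which epithelial markers were raised, led by Gpx5, Spag11b and Defb20, held 38 of the 544 UMIs of the library labelled CD45- Tom+ in 16 cells. T cell-like cells had no UMI of it in any library.

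The stromal ligands differed between the clusters that make up the APC-like class, which were named after their leading genes once their values had been seen. Cluster 0 (1490 cells, led by Clec3b, Ogn and Inmt) had the most Vegfd in each library, at 506, 679, 655 and 651 CPM, and over all libraries together 652 (642 to 662) CPM. Cluster 4 (904 cells, with Sfrp1 and Sult1e1 among its leading genes) had 482 (473 to 491) CPM. Cluster 21 (153 cells, led by Pi16, Sema3c and Cd248) had 406 (387 to 427) CPM. Cluster 13 (306 cells, with Col1a1 and Cilp among its leading genes) had 317 (306 to 328) CPM. Cluster 8 (770 cells, with Col4a1 and Col15a1 among its leading genes) had 194 (188 to 200) CPM. Neighbours in this order did not overlap. Vegfc over all libraries followed another order: cluster 0 had 64.6 (61.6 to 67.7) CPM, cluster 4 41.9, cluster 13 27.8, cluster 8 14.1 and cluster 21 8.21 (5.65 to 11.5). Cluster 21 thus had more Vegfd than clusters 13 and 8 and less Vegfc than either. In the library labelled CD45- Tom+, clusters 0 and 4 did not stand apart for Vegfc, at 36.1 and 37.8 CPM. Vegfa was highest in cluster 4, at 155, 109, 128 and 131 CPM, against 65.9, 47.0, 53.7 and 43.9 CPM in cluster 0. Cluster 0 made up 41.7%, 40.7%, 43.0% and 41.3% of APC-like cells, so its share hardly differed between libraries.

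**Figure D2:**
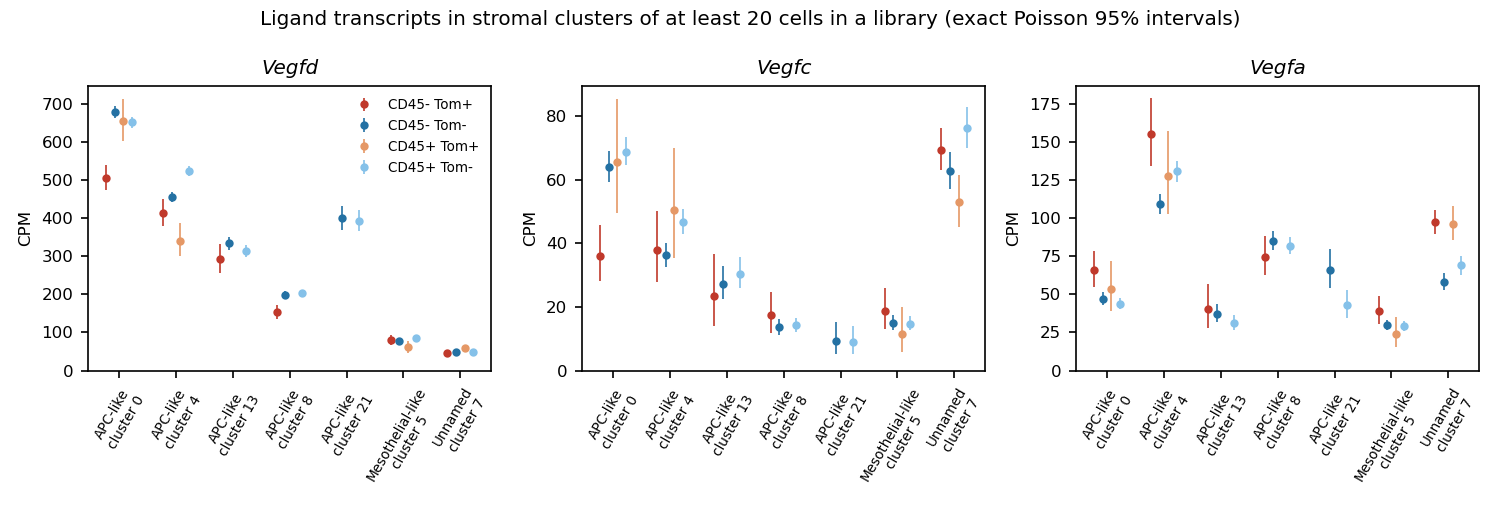
CPM of Vegfd, Vegfc and Vegfa (vertical axes, 1 panel each) in the clusters of APC-like cells, mesothelial-like cells and cluster 7 (horizontal axes), for clusters with at least 20 cells, as 1 point per library with 95% counting intervals. Vegfd is highest in cluster 0 in each library, and Vegfa is highest in cluster 4.

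Flt4, the receptor of VEGF-C and VEGF-D, was high in lymphatic endothelial-like cells and low elsewhere. They were at 1085 (1051 to 1121) and 969 (921 to 1019) CPM in the Tom+ libraries, and 98.9% and 96.5% of them had a UMI. After thinning every cell to 2000 UMIs the shares were 83.1% and 82.6%. Blood endothelial-like cells had 44.1 (30.3 to 61.9), 58.9 (44.1 to 77.1), 35.1 (20.4 to 56.2) and 58.9 (46.3 to 74.0) CPM, with a UMI in 40.3%, 38.5%, 37.5% and 39.6% of cells. The 4 blood endothelial values overlapped each other and none reached the lymphatic values. T cell-like cells, which should lack the receptor, had 3.43, 1.38, 1.999 and 1.68 CPM, with a UMI in 2.45%, 0.870%, 1.40% and 1.201% of cells at medians of 7252, 5929, 6811 and 6677 UMIs per cell. The single lymphatic endothelial-like cell of the library labelled CD45- Tom- had 76 UMIs of Flt4 among its 48929.

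Kdr marked both kinds of endothelium and the mesothelium. Blood endothelial-like cells were at 929 (862 to 1001), 910 (848 to 974), 776 (699 to 858) and 994 (940 to 1051) CPM. Lymphatic endothelial-like cells were at 613 (587 to 640) and 652 (613 to 694) CPM, with a UMI in 100% and 97.7% of cells. Mesothelial-like cells, an epithelium and not a vessel wall, came next at 114 (100 to 130), 117 (110 to 123) and 123 (117 to 129) CPM, with a UMI in 72.4%, 68.1% and 66.9% of cells. Their 3 intervals overlapped. APC-like cells had 2.33, 4.99, 12.1 and 2.41 CPM.

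Flt1 was the receptor of blood endothelium. Blood endothelial-like cells had 1148 (1073 to 1228), 1058 (992 to 1128), 964 (878 to 1055) and 951 (897 to 1006) CPM, with a UMI in 93.3% to 100% of cells. Lymphatic endothelial-like cells had 7 UMIs in 5 cells (2.04 CPM) in the library labelled CD45- Tom+ and none in that labelled CD45+ Tom+, which allows up to 1.91 CPM. Monocyte-like cells had 15.5 and 21.2 CPM in the Tom- libraries, cluster 7 had 14.0 to 18.0 CPM and APC-like cells 8.47 to 12.1 CPM. Cluster 24, a mixed cluster led by Vwf, Aqp1 and Lep that was given no name, had 475 CPM in the library labelled CD45+ Tom+.

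The neuropilins divided the endothelial classes. Nrp1 was at 554 (502 to 610), 582 (533 to 634), 592 (526 to 665) and 622 (579 to 667) CPM in blood endothelial-like cells and at 1.454 and 3.82 CPM in lymphatic endothelial-like cells. The latter rest on 5 and 6 UMIs, and their intervals overlapped those of B cell-like cells of the Tom+ libraries, which had 3.52 and 6.88 CPM. Nrp2 was at 649 (623 to 677) and 614 (576 to 654) CPM in lymphatic endothelial-like cells and at 260, 312, 390 and 309 CPM in blood endothelial-like cells. Both neuropilins were also counted outside the vessels, where they bind class 3 semaphorins. Nrp1 was at 200, 185, 211 and 194 CPM in macrophage-like cells, at 158, 176, 168 and 171 CPM in APC-like cells and at 96.4, 64.2, 79.0 and 71.9 CPM in T cell-like cells. Nrp2 was at 253, 183, 230 and 180 CPM in cluster 2 and at 172, 129, 179 and 134 CPM in macrophage-like cells.

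**Figure D3:**
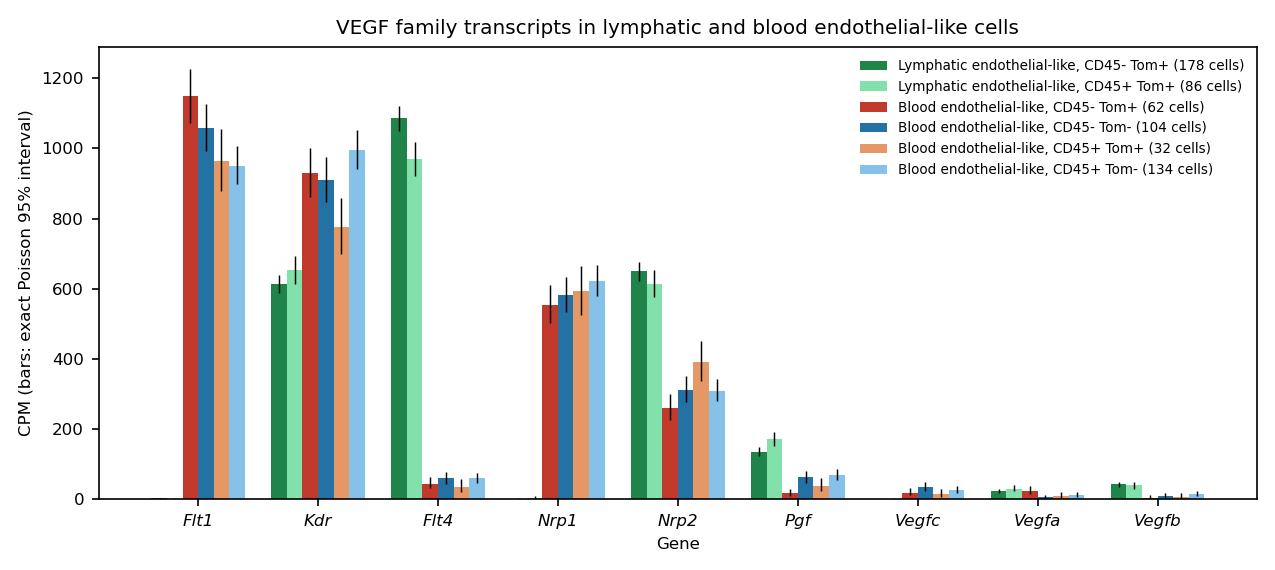
CPM (vertical axis) of 9 members (horizontal axis, Vegfd is not drawn) as bars for lymphatic and blood endothelial-like cells of each library, with 95% counting intervals as lines. The lymphatic values lie above the blood values for Flt4, Pgf and Nrp2 and below them for Flt1, Nrp1 and Kdr.

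Within the Tom+ libraries, lymphatic and blood endothelial-like cells were set against each other gene by gene. A gene was counted as different where the ratio was past 1.5-fold and the interval of its log2 value left out 0, provided that its 2 levels averaged 5 CPM or more. By this rule 17.4% of 9933 genes were higher and 14.3% lower in lymphatic endothelial-like cells of the library labelled CD45- Tom+, and 13.9% and 13.2% of 10047 genes in that labelled CD45+ Tom+. Of the 10 members 9 passed the filter in each, Vegfd being too low. In the former, 4 were higher (Flt4, Vegfb, Pgf and Nrp2) and 4 lower (Kdr, Flt1, Nrp1 and Vegfc). In the latter, 5 were higher, Vegfa being the addition, and 3 lower (Flt1, Nrp1 and Vegfc). The blood endothelial-like class had 32 cells there.

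On the log2 scale, Flt4 was higher in lymphatic endothelial-like cells of the Tom+ libraries by 4.62 (4.13 to 5.16) and 4.79 (4.10 to 5.57). Pgf was higher by 3.08 (2.26 to 4.04) and 2.20 (1.51 to 2.98), and Nrp2 by 1.32 (1.11 to 1.54) and 0.66 (0.43 to 0.89). For Flt1 the log2 ratio was -9.14 (-10.46 to -8.09) in the first. In the second it was 505-fold lower at the floor of 3 UMIs, a value that leaves out the counting error of blood endothelial-like cells. The 2 neuropilins went opposite ways, with log2 ratios of -8.57 and -7.28 for Nrp1. Kdr was lower by a log2 ratio of -0.60 (-0.73 to -0.47) and -0.25 (-0.42 to -0.08), the second of which did not pass 1.5-fold. Vegfc was 21.4-fold lower in the first library at the same floor, whereas for Vegfa the log2 ratio was -0.05 there and 1.86 (0.41 to 3.79) in the other.

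Receptors were also counted together in single cells. Of the 178 and 86 lymphatic endothelial-like cells, 176 (98.9%) and 81 (94.2%) had UMIs of both Flt4 and Kdr, and 165 (92.7%) and 77 (89.5%) had both Flt4 and Nrp2. The ligand Pgf was found together with Flt4 in 89 (50.0%) and 36 (41.9%). Kdr and Nrp1 were together in 4 (2.25%) and 6 (6.98%). In blood endothelial-like cells the last pair was together in 91.9%, 84.6%, 93.8% and 91.0% of cells. Flt1 and Kdr were together in 59 of 62, 97 of 104, 31 of 32 and 123 of 134 blood endothelial-like cells. Flt4 and Kdr were together in 40.3%, 36.5%, 37.5% and 38.8% of them. These shares follow depth. With every cell thinned to 2000 UMIs, Flt4 and Kdr were together in 60.7% and 50.0% of lymphatic endothelial-like cells, Flt4 and Nrp2 in 53.9% and 51.2% and Flt4 and Pgf in 13.5% and 13.95%. In thinned blood endothelial-like cells, Flt1 and Kdr were together in 53.1% to 67.2%, Kdr and Nrp1 in 40.3% to 60.4% and Flt4 and Kdr in 3.13% to 11.2%.

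The blood endothelial-like class split into 4 sub-clusters, whose members are given over all libraries because each holds few cells, and whose leading genes were named once seen. Sub-cluster 12.0 (223 cells) had Flt1 at 1149 CPM, Kdr at 1110 and Nrp1 at 623, with Vegfc at 6.499 and Pgf at 7.58. Sub-cluster 12.1 (47 cells, with the arterial gene Sema3g among its leading genes) held the Vegfc of blood endothelium, at 111 (83.6 to 145) CPM, with Flt1 at 1571, Nrp2 at 105 and no UMI of Pgf. Sub-cluster 12.3 (34 cells, with Selp and Vwf, known from veins, among its leading genes) had lower Kdr, at 434 CPM, and higher Nrp2, at 498 CPM. Sub-cluster 12.4 (28 cells, with Sox17 and Aplnr among its leading genes) held most Pgf, at 327 (279 to 382) CPM, with Flt1 at 183 and Kdr at 838. The first leading genes of these 2 sub-clusters were others, Aqp1 in 12.3 and Cldn5 in 12.4. The libraries took different shares from these: 12.1 was 9.68%, 21.2%, 3.13% and 13.4% of blood endothelial-like cells, 12.3 was 17.7%, 2.89%, 25.0% and 8.96%, and 12.4 was 4.84%, 11.5%, 9.38% and 7.46%.

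Other genes of the VEGF pathway, in lists of 75 genes, were read in the same comparison. Of the receptor adaptors and signalling genes, 3 of 12 were higher and 3 lower in lymphatic endothelial-like cells of the Tom+ library labelled CD45-, and 3 of 12 and 4 of that labelled CD45+, in which order the next lists are given too. Of the genes that VEGF induces in endothelium, 3 of 9 were higher and 2 lower, and 3 of 10 and 5. Of the hypoxia response genes, 3 of 16 were higher and 5 lower, and 2 of 16 and 4. Of the inhibitors and modulators of VEGF, 4 of 9 were higher and 3 lower, and 2 of 9 and 5. Of the other vascular growth factors and receptors, 4 of 12 were higher and 4 lower, and 4 of 13 and 5. Of the VEGF-C and VEGF-D maturation genes, 1 of 3 was higher and 0 lower, and 2 of 3 and 1. Each list thus went both ways in at least 1 library, beside the backgrounds given above.

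Several pathway genes reached their highest value in lymphatic endothelial-like cells, though not all of them stood apart from blood endothelial-like cells there. Angpt2, a ligand of the receptor Tek that loosens vessel walls, was at 572 and 560 CPM, against 29.4 and 90.8 CPM in blood endothelial-like cells of the same libraries (log2 ratio 4.28 and 2.62). Plcg1, the phospholipase that VEGF receptors activate, reached 146 CPM, Nck1, an adaptor protein, 111 CPM and Prkd2, a kinase downstream of it, 99.9 CPM. Their next class, blood endothelial-like cells, reached 108, 103 and 89.2 CPM. Within the Tom+ libraries the log2 ratios were 0.56 (0.19 to 0.95) and 0.72 (0.24 to 1.22) for Plcg1, and the intervals held 0 for Nck1 (0.19 and 0.25) and Prkd2 (0.22 and 0.39). Klf2, a transcription factor of endothelium under flow, reached 2259 CPM and Timp3, a protease inhibitor that also blocks VEGF receptor 2, 1823 CPM. Tie1, a partner of the receptor Tek, reached 400 CPM, Calcrl, the receptor of adrenomedullin, 302 CPM and its partner Ramp2 487 CPM. Ramp2 was at 461 CPM in blood endothelial-like cells of the same library, with log2 ratios of 0.08 (-0.09 to 0.25) and 0.11 (-0.12 to 0.34).

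The 7 maturation genes of VEGF-C and VEGF-D had their highest levels in different classes, and are named here after their values were seen. Of these, 3 were highest in stromal classes (Ccbe1, Adamts3 and Pcsk5) and 4 in leukocytes. Furin, a proprotein convertase, reached 855 CPM in mast-like cells and Ctsd, a lysosomal protease, 7300 CPM in cluster 2 and 6074 CPM in macrophage-like cells. Adamts14 reached 62.9 CPM in NK cell-like cells and Pcsk7 64.0 CPM in T cell-like cells. Ccbe1, the cofactor that brings pro-VEGF-C to its protease, was at 140, 148 and 123 CPM in mesothelial-like cells and at 70.4, 91.1, 75.5 and 90.6 CPM in APC-like cells. Lymphatic endothelial-like cells of the Tom+ libraries had 0.291 CPM and no UMI. Adamts3, the protease itself, was low, at 5.48, 4.93, 6.45 and 4.69 CPM in APC-like cells. Pcsk5, a proprotein convertase, was at 67.3, 68.6, 65.6 and 69.8 CPM in APC-like cells. The APC-like class, which had the highest Vegfd, thus also had transcripts of Ccbe1, Adamts3 and Pcsk5 in all 4 libraries.

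The share of each transcript that a class held depended on the cells sorted. Lymphatic endothelial-like cells held 96.4% (95.8 to 97.0) and 95.5% (94.4 to 96.5) of all Flt4 UMIs of the Tom+ libraries and 85.7% and 85.1% of all Pgf UMIs. In the library labelled CD45+ Tom-, where none was found, blood endothelial-like cells held 54.4% of Flt4. In that labelled CD45- Tom-, the single lymphatic endothelial-like cell held 44.2% and blood endothelial-like cells 30.8%. Over all kept cells Flt4 was at 40.6, 2.30, 33.5 and 1.49 CPM. Kdr UMIs lay in lymphatic endothelial-like cells for 56.8% and 47.3% in the Tom+ libraries, and in mesothelial-like cells for 51.5% and 49.6% in the Tom- libraries.

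For the ligands, the same shift ran through the stroma. APC-like cells were 6.85%, 41.8%, 5.55% and 39.1% of cells and held 66.7%, 92.0%, 70.0% and 92.6% of Vegfd UMIs. Vegfd over all kept cells was at 33.1, 227, 30.8 and 227 CPM, while within APC-like cells the libraries differed by less than 1.5-fold. The largest share of Vegfc lay in cluster 7 in the Tom+ libraries (59.7% and 51.1%) and in APC-like cells in the Tom- libraries (65.6% and 69.6%). For Vegfa the largest share lay in plasma cell-like cells in the Tom+ libraries (36.1% and 40.1%), where they were 21.8% and 22.4% of cells, and in APC-like cells in the Tom- libraries (44.4% and 43.7%). In the Tom- libraries plasma cell-like cells were 1.062% and 1.32% of cells. These shares of transcripts follow the makeup of the sorted libraries as well as the levels.

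**Figure D4:**
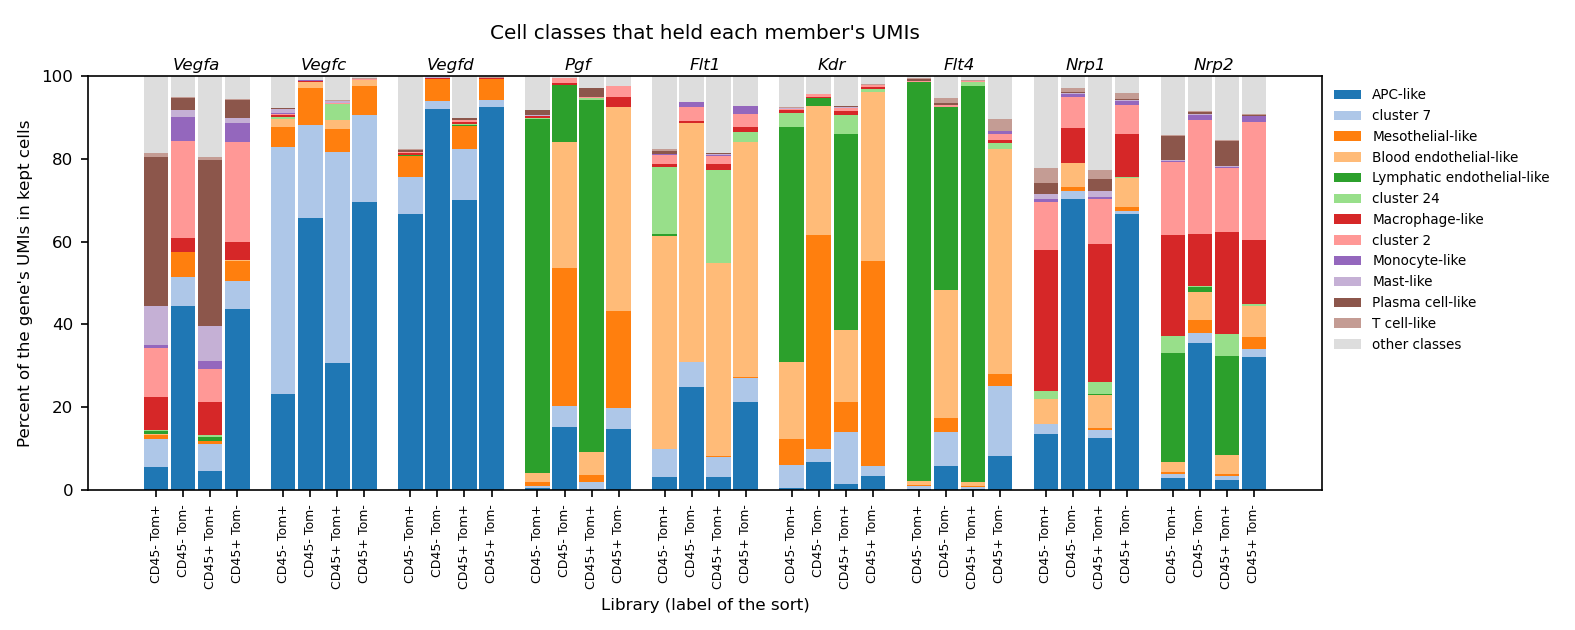
Percent of the UMIs of each member in kept cells (vertical axis) that each cell class held, as 1 stacked bar per library (horizontal axis), with Vegfb not drawn. Classes without a colour of their own are pooled as other classes. The lymphatic endothelial-like part fills most of the Flt4 and Pgf bars of the Tom+ libraries, and the APC-like part most of the Vegfd bars.

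Levels were compared between Tom+ and Tom- libraries within each class that had at least 50 cells in both. Of 48 class and member values in the pair labelled CD45-, 8 were higher and 2 lower in the Tom+ library past 1.5-fold with an interval that left out 0, and of 36 in the pair labelled CD45+, 7 were higher and 1 lower. Over all genes, in the classes where a member was past this rule, 2.68% to 5.86% were higher and 2.16% to 9.87% lower in the pair labelled CD45-. In that labelled CD45+ these shares were 2.62% to 5.57% and 2.3% to 8.64%. The pooled counts are not read as a result about the members. The median over all genes lay within 0.1 of 0 on the log2 scale except in B cell-like cells of the pair labelled CD45- (-0.20), in cluster 7 (-0.14 and -0.12 in the pairs labelled CD45- and CD45+) and in plasma cell-like cells (-0.19). Lymphatic endothelial-like cells could not be compared this way, since the Tom- libraries had 1 and 0 of them. In APC-like cells none of 7 members differed in the pair labelled CD45-, where 3.63% of all genes did. For Vegfd the log2 ratios were -0.34 (-0.40 to -0.27) and -0.22 (-0.31 to -0.13) in the pairs labelled CD45- and CD45+, and for Vegfc -0.41 and -0.15. Without cells whose barcode was deposited in another library, Vegfd was at -0.68 and -0.38, the first of which was past 1.5-fold. The median over the members that passed was -0.16 and -0.05, beside -0.03 in both pairs over all genes. In the pair labelled CD45+, Kdr was higher, 1 of 8 members against 2.62% of all genes higher and 2.3% lower, with a log2 ratio of 2.33 (1.71 to 2.92), but its 32 UMIs lay in 6 of 107 cells and 31 of them in 5 cells. Of the other pathway genes in APC-like cells of the pair labelled CD45-, 1 of 6 induced genes was higher and 1 lower, 2 of 15 hypoxia response genes were lower and 1 of 10 other vascular genes was lower. In the pair labelled CD45+, 1 of 7 maturation genes was lower, and 1 of 10 inhibitors and 1 of 9 other vascular genes were higher. None was past the rule in the same direction in both pairs, where 0.826% of all genes were higher and 0.258% lower. The medians of the 6 lists lay between -0.23 and 0.14 in the pair labelled CD45- and between -0.08 and 0.20 in that labelled CD45+.

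Vegfa in lymphocytes was higher in the Tom+ library of both pairs. T cell-like cells had 32.4 CPM against 15.9 in the pair labelled CD45- and 27.0 against 7.99 in that labelled CD45+, log2 ratios of 1.03 (0.35 to 1.76) and 1.76 (0.86 to 2.68), where 2.58% of all genes were higher in both pairs. Members higher in T cell-like cells were 2 of 4 in the pair labelled CD45- (5.86% of all genes higher, 9.01% lower) and 1 of 3 in that labelled CD45+ (5.57% and 7.96%). The other was Nrp1 in the first pair, with a log2 ratio of 0.59 (0.24 to 0.95), or 0.23 when both libraries were given the same mix of T cell clusters. The T cell-like class was cluster 10, with Ccl5 and Cd8b1 among its leading genes, and cluster 11, with Trdc and Il17a among its own. Cluster 11 was 70.8%, 24.8%, 65.0% and 27.0% of the class. Vegfa was at 23.0, 15.6, 26.9 and 7.84 CPM in cluster 10 and at 36.1, 16.6, 27.1 and 8.32 CPM in cluster 11. Over both clusters these values rest on 85, 23, 27 and 19 UMIs. B cell-like cells had 21.7 against 9.86 CPM and 34.4 against 18.9 CPM, log2 ratios of 1.14 (0.22 to 2.14) and 0.86 (0.01 to 1.67), as 1 of 3 and 1 of 4 members (2.74% and 3.07% of all genes were higher, 0.811% in both, and 9.87% and 4.63% lower). With the barcodes marked as doublets kept, the first of these was 0.06. In the pair labelled CD45+, 5 cells held 12 of the 20 Vegfa UMIs of the Tom+ library, and 5 cells 25 of the 41 of the Tom- library. The interval does not cover such clumping. Plasma cell-like cells, with 12.0% of all genes past the rule, had none of 4 members past it. Marker sums of other classes also differed between the same libraries, though not all in the same direction. In T cell-like cells the lymphatic markers summed to 27.8 against 2.76 CPM and 14.99 against 5.47 CPM, the blood endothelial markers to 250 against 183 CPM and 284 against 169 CPM, and the APC markers to 132 against 553 CPM and 117 against 453 CPM. In B cell-like cells the same lists summed to 27.6 against 18.3 and 37.9 against 10.1 CPM, to 67.4 against 17.6 and 31.0 against 12.0 CPM, and to 141 against 465 and 129 against 434 CPM. The pan-endothelial markers summed to 64.4 against 42.1 and 62.0 against 53.0 CPM in T cell-like cells. In B cell-like cells they went the other way, at 72.7 against 87.3 and 51.6 against 90.4 CPM. Neutrophil-like cells of the library labelled CD45- Tom- had 147 CPM of the blood endothelial markers, from 1 of the 6 genes. The Tom+ libraries also held more plasma cell-like cells, with Vegfa at 103 and 113 CPM. The part of these shifts in the Vegfa values was not tested.

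In blood endothelial-like cells no receptor was past the rule in the pair labelled CD45-. That labelled CD45+ had 32 cells in its Tom+ library and was not compared. The pair labelled CD45- gave log2 ratios of 0.12 for Flt1, 0.03 for Kdr, -0.42 (-1.09 to 0.23) for Flt4, -0.07 for Nrp1 and -0.26 for Nrp2, with sub-cluster 12.3 at 17.7% and 2.89% of the 2 libraries' cells. The interval of Flt4 reached past 1.5-fold, so its counts do not bound the difference to less than that. Of 10 members, 1 was higher and 2 were lower, where 3.13% of all genes were higher and 4.76% lower. Vegfa was higher by 2.11 (0.63 to 3.90), from 18 against 5 UMIs, with 12 of the 18 in 5 cells. Vegfd had 1 UMI against 10, at the level counted in T cell-like cells. Pgf had 12 against 56 UMIs, a log2 ratio of -1.96 (-2.99 to -1.04), with 54 of the 56 in 5 cells, and without cells whose barcode was deposited in another library the ratio turned to 0.83.

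Macrophage-like cells, which clear debris and lipid in adipose tissue, had none of 4 members past the rule in either pair, where 4.67% and 6.03% of all genes were. Nrp2 had log2 ratios of 0.41 (0.27 to 0.55) and 0.42 (0.28 to 0.56) and Vegfa of 0.26 and 0.32. Of the pathway genes, Egr3, an early response transcription factor, was higher in both pairs (13.9 against 5.20 CPM and 22.3 against 6.505 CPM, with 1.16% of all genes higher in both), and Sparc, a matrix protein of stromal cells that binds VEGF, was lower (21.1 against 44.8 CPM and 20.2 against 56.0 CPM, with 0.726% lower in both). The 8 APC markers summed to 78.9 against 231 CPM and 61.9 against 312 CPM in the same macrophage-like cells, in libraries of which APC-like cells were 6.85% against 41.8% and 5.55% against 39.1%, and the part of this background in the value of Sparc was not tested. Egr3 was highest in mast-like cells, at 1463 CPM in the library labelled CD45- Tom+. Mast-like cells were 9.26% against 1.03% and 8.93% against 1.05% of the same libraries. Their part in the value of Egr3 was not tested. Mesothelial-like cells of the pair labelled CD45- had Kdr at a log2 ratio of -0.03, and Nrp2 higher, 1 of 7 members (2.69% of all genes higher, 2.16% lower), at 21.8 against 11.9 CPM.

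In cluster 2, Vegfb was higher in both pairs, at 10.4 against 4.63 CPM and 12.1 against 5.90 CPM (1 of 5 and 2 of 5 members higher, with 4.12% and 4.46% of all genes higher, 2.25% in both, and 2.97% lower in the pair labelled CD45-). The other was Nrp1, whose log2 ratio in the pair labelled CD45+ was 0.59 (0.41 to 0.77). Its Vegfa was lower in the pair labelled CD45+, by a log2 ratio of -0.69 (-0.86 to -0.53), as 1 of 5 members against 5.24% of all genes. This was past 1.5-fold in 2 of 10 alternatives, and Nrp1 in 3 of 10. With every cell thinned to 2000 UMIs the log2 ratio of Vegfb turned to -0.048 and -0.28. In cluster 7, Kdr was higher in both pairs, at 34.3 against 11.9 CPM and 86.0 against 10.4 CPM (2 of 8 members in each, with 2.68% and 4.66% of all genes higher, 1.92% in both, and 5.48% and 8.64% lower). The others were Vegfa in the pair labelled CD45-, with a log2 ratio of 0.73 (0.55 to 0.92), and Nrp1 in that labelled CD45+, with 0.60 (0.15 to 1.05). In the Tom+ libraries 5 cells held 95 of the 213 and 178 of the 271 UMIs of Kdr. When the cells were clustered more finely, the ratio was -1.06 in the pair labelled CD45- and 0.33 in that labelled CD45+.

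**Figure D5:**
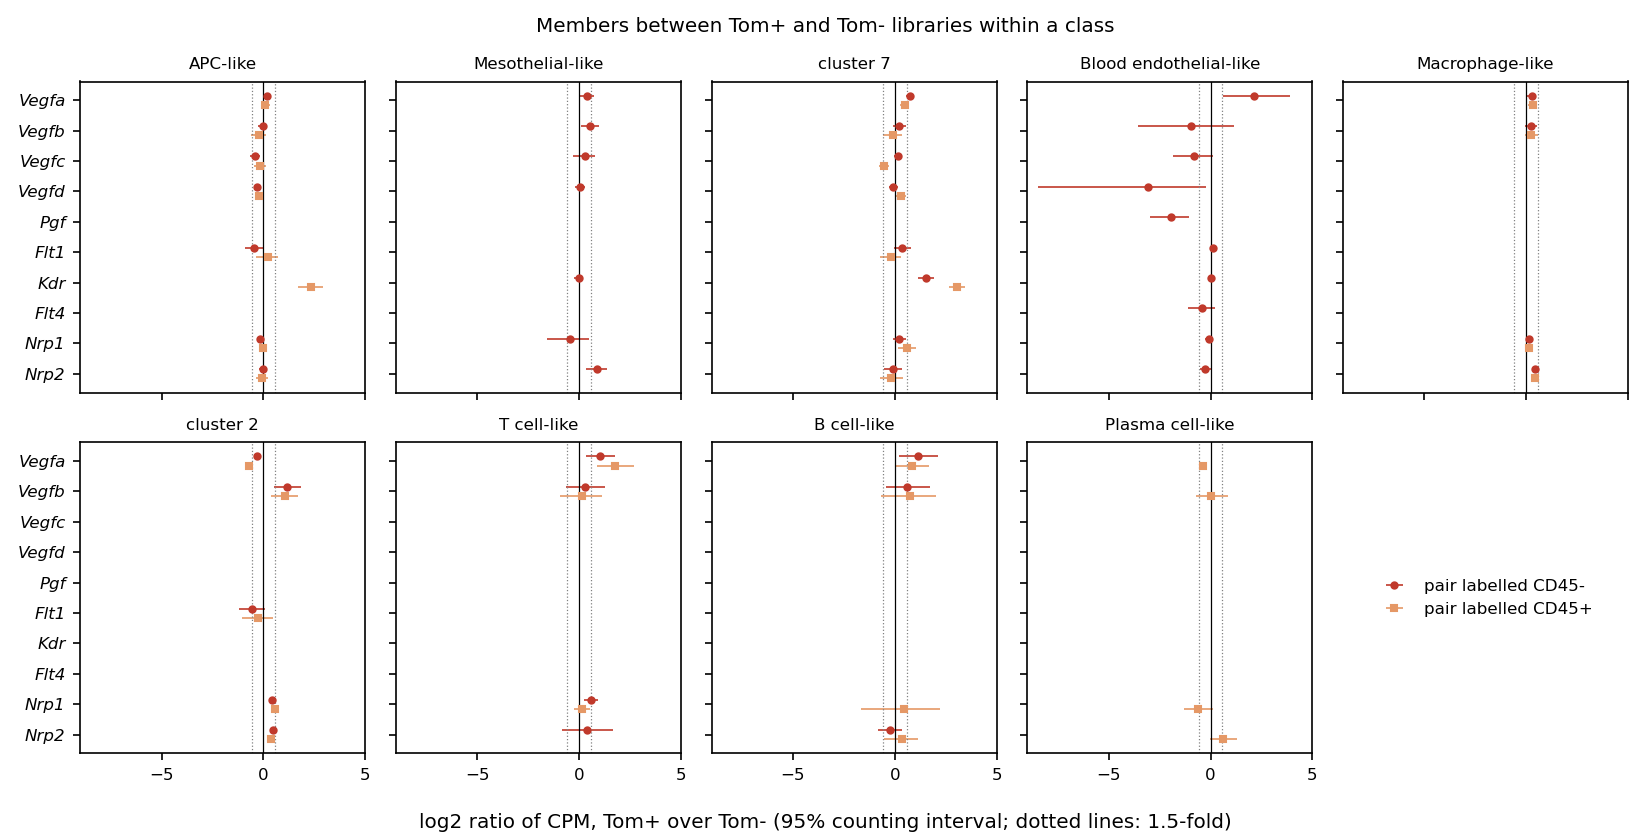
Log2 ratio of CPM (horizontal axis), Tom+ over Tom-, of each member (vertical axis) with a mean of 5 CPM or more within a class (panels), for the pair labelled CD45- (circles) and that labelled CD45+ (squares), with 95% counting intervals and dotted lines at 1.5-fold. Vegfa lies to the right of the lines in T and B cell-like cells of both pairs. The points of the receptors of blood endothelial-like cells lie between the lines, though the interval of Flt4 reaches past the left one.

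Genes with the pattern most like each member were taken over 52 class and library sums by Pearson's r of log2(CPM + 1) among 7190 genes, as a description, since the sums share libraries and depth. For Flt4 these were Wscd1 (r = 0.94), Rassf9 (0.92) and Sox18 (0.91), a transcription factor of lymphatic development. For Kdr they were Adgrf5, Efna1 and Ephb1 (0.93 each), for Flt1 Sema3g (0.88), Mecom and Aplnr (0.86 each), and for Pgf Hoxd9, Crybb3 and Clic5 (0.92 each). For Vegfd they were Fst, an activin antagonist, and Ogn, a matrix proteoglycan (0.98 each), and Clec3b (0.96), and for Vegfc Sparc (0.92), Des and Atp1b2 (0.91 each). For Nrp2 they were Cebpg, Ednrb and Rufy3 (0.86 each) and for Nrp1 B3gnt3 (0.82), Ptger4 (0.78) and Pparg (0.76). The ubiquitous ligands had looser company, Slc7a8 (0.79), Ss18l2 (0.70) and Entpd7 (0.67) for Vegfa and Fundc2 (0.80), Aig1 and Hmgn1 (0.75 each) for Vegfb.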

How the data were processed

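The authors sorted stromal vascular cells after Liberase digestion, red cell lysis and staining for CD31 and CD45, made 10x Genomics Chromium 3′ libraries and processed them with Cell Ranger 3.0.2 against mm10, per the labels. The deposited values are UMI counts per gene and barcode, not normalised, 1 matrix per library. The study tested over cells with a Wilcoxon test, which was not used here because cells of 1 library are not replicates.

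The study's filter was applied (more than 1000 genes, fewer than 7000, less than 8% of UMIs mitochondrial) and the highest doublet scores (0.8% per 1000 barcodes, Scrublet in scanpy 1.11.5) were left out. Clustering used 2000 variable genes without the members and pathway genes, 30 components, 15 neighbours and Leiden resolution 1 (leidenalg 0.10.2). A class needed at least 3 markers at 20 CPM and 4 times the median over clusters, thresholds set after the data were seen. A cluster kept its number where another class was raised nearly as much. It also did so where its leading genes held more markers of another class, or none of its own. Names end in -like because no protein was measured.

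CPM of summed counts carry exact Poisson intervals, shares Clopper-Pearson intervals, and log2 ratios (scipy 1.17.1) conditional exact intervals. A count of 0 was given the floor of 3 counts. Genes were compared where their mean over the 2 libraries or classes reached 5 CPM. Of 31054 features, 31011 were found in GENCODE vM21. The computation was tested on simulated data. Members, lists and markers were chosen with earlier results of these data known. Named were the members at 5 CPM or more, and pathway genes past 1.5-fold in both pairs in APC-like or macrophage-like cells or highest in lymphatic endothelial-like cells, at most 4 a list. Named too were the 3 most similar genes to a member, among genes reaching 50 CPM. Leading genes of clusters, the maturation enzymes and lymphatic marker genes were added to these after their values were seen.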

Additional observations from a re-analysis of the deposited data

Results flagged for a closer look

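Vegfa moved in opposite directions between the Tom+ and the Tom- library of the pair labelled CD45+. Its log2 ratio was 1.76 in T cell-like cells and 0.86 in B cell-like cells, where the Tom+ library was higher, and -0.69 in cluster 2, where it was lower. With 1 library per group, the difference between these classes was not tested. Plasma cell-like cells were 22.4% of the former library and 1.32% of the latter, and cluster 11 was 65.0% and 27.0% of the T cell-like class. Their part in these values was not tested. In the pair labelled CD45-, the first 2 classes were higher by 1.03 and 1.14, and cluster 2 did not pass 1.5-fold.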

How the results depend on the processing

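No paired analysis was possible because the labels carry no replicate numbers and each group is 1 library, and for the same reason no replicate could be left out. The 2 alternatives that leave out cells with shared barcodes were chosen after seeing the data. Leaving out those whose barcode was kept in another library left all 284 member levels within their intervals, and leaving out those deposited in another 197 of 266. Thinned to 2000 UMIs, 137 of 284 stayed within and 76 moved over 1.5-fold, 20 of 269 did so at Leiden resolution 2 and 22 of 253 with the relaxed filter, and 0 to 16 under the others. Causes of the changes below were not tested, except that thinning and stricter rules hold fewer counts or genes by construction.

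Of all class and member ratios, called or not, 60 of 78 kept their direction when thinned and 68 of 84 with the relaxed filter. Among those past 1.5-fold, signs turned for Pgf in blood endothelial-like cells of the pair labelled CD45- (0.83 without cells whose barcode was deposited in another library), for Kdr in cluster 7 of that pair (-1.06 at Leiden resolution 2) and for Vegfb in cluster 2 (-0.048 when thinned to 2000 UMIs in the pair labelled CD45-, and -0.28 when thinned and -0.0101 with 4000 variable genes in that labelled CD45+). Vegfa in T cell-like cells was past 1.5-fold in all 11 alternatives of both pairs, whereas Nrp1 there was past it in 3 of 11, and in cluster 2 of the pair labelled CD45+ Vegfa was past it in 2 of 10 and Nrp1 in 3 of 10. Vegfd in APC-like cells had log2 ratios of -0.25 (Leiden resolution 2 and thinned), -0.41 (mean of single-cell CPM) and -0.68 (without deposited barcodes) in the pair labelled CD45-, and -0.38 with the last in that labelled CD45+.

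With the filter relaxed to 500 genes and 20% mitochondrial UMIs, the lymphatic endothelial-like share was 3.02% and 3.37% in the Tom+ libraries (CD45- label first), and its share of Flt4 UMIs 92.6% and 93.7%. With marked doublets kept, that share was 95.2% in the former and the Flt4 level 912 CPM in the latter. Flt4 in the library labelled CD45- Tom+ was 1045 CPM as a mean of single-cell CPM and 1051 CPM when thinned, and thinned detection was 83.1% and 82.6%.

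In the pair labelled CD45-, 10 member values past 1.5-fold became 20 with the relaxed filter, 19 without deposited barcodes, 17 without a level filter and 5 at 20 CPM or more, and 54 pathway values became 103 with the relaxed filter, 32 when thinned, 26 at 2-fold and 30 at 20 CPM. In that labelled CD45+, 8 member values became 5 at Leiden resolution 0.5, 18 with the relaxed filter, 3 when thinned and 4 at 2-fold or at 20 CPM, and 55 pathway values became 31 when thinned, 29 at 2-fold and 34 at 20 CPM. The share of all genes past the rule was not counted under these alternatives. The counts describe only how the rule depends on the processing and are not read as results about the genes.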
